A study of Mus musculus with 16 samples.

Results

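Among the transcripts measured in newborn inner ears with and without COUP-TFI, 5 genes encode proteins of the acellular matrices of the ear: Tectb (beta-tectorin), Tecta (alpha-tectorin), Otog (otogelin), Coch (cochlin) and Oc90 (otoconin). They were chosen by gene symbol in the platform annotation. All 5 of 5 listed genes were on the chip, each with 1 probe set, out of 8251 genes named by a single symbol. The probe sets were 98301_at for Tectb, 98315_at for Tecta, 94625_at for Otog, 103317_at for Coch and 92439_at for Oc90. In the mouse the genes lie on chromosome 19 (Tectb), 9 (Tecta), 7 (Otog), 12 (Coch) and 15 (Oc90).

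RNA came from whole inner ears of P0 (newborn) mice of strain 129SvEv, either COUP-TFI-/- (4 chips) or wild-type (4 chips). COUP-TFI, encoded by Nr2f1, is an orphan nuclear receptor, a DNA-binding transcription factor, and the COUP-TFI-/- mice are homozygous for its loss, with no tissue-restricted Cre driver named in the labels. Ears of several animals were combined into an RNA pool, and pools were hybridized to Affymetrix MG-U74Av2 chips in 2 sets run at different times. Each set had 1 pool per genotype on duplicate chips. The letters A and B of the chip labels were read as these sets, which the labels do not state. Each genotype is therefore represented by 2 pools. The p-values below rest on the spread between pools or, where stated, between duplicate chips. With so few pools, the spread between pools was drawn mostly from all probe sets and not from the single gene. Every chip carries 2 normalizations of the same signals, GCRMA values on the log2 scale and dChip intensities on a linear scale, which are not independent of each other.

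The tectorial membrane is a sheet of extracellular gel that lies over the hair cells of the cochlea and couples to their stereocilia. It is built from collagen fibrils embedded in a matrix of noncollagenous glycoproteins, chiefly alpha-tectorin and beta-tectorin, which are secreted by the epithelium of the cochlear duct around birth. Otogelin occurs in the tectorial membrane and in the gelatinous membranes of the vestibular organs. Oc90 is the main matrix protein of otoconia, the calcium carbonate crystals of the utricle and saccule, and cochlin is secreted mostly by fibrocytes of the spiral ligament and spiral limbus.

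Sequence upstream of 3 of the genes is shown because nuclear receptors such as COUP-TFI bind repeats of the half-site AGGTCA, and because the single chips of the genotypes were apart within both sets for Tectb and Tecta and overlapped in both for Otog. Each window holds the 250 bases before the most upstream transcription start of the gene in RefSeq (GRCm38.p6), and capitals mark the core GGTCA on either strand, which reads TGACC where it lies on the opposite strand.
Tectb, chr19:55180476-55180725, plus strand: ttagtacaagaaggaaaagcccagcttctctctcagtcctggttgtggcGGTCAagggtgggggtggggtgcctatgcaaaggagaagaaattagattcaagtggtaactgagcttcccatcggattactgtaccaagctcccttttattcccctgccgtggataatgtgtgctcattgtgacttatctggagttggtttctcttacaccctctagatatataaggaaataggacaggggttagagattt
Tecta, chr9:42401691-42401940, minus strand: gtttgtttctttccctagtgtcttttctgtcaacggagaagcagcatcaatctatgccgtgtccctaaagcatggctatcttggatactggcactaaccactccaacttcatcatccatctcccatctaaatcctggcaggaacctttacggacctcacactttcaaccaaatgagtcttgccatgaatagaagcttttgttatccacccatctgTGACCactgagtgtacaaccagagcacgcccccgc
Otog, chr7:46240737-46240986, plus strand: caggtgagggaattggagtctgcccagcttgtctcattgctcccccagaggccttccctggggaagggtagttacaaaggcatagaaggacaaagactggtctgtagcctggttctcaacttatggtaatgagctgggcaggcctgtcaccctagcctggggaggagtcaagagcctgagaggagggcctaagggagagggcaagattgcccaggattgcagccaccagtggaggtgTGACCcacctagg
The full half-site AGGTCA was absent from these windows on both strands, and it occurred in 4607 of the 32851 mouse windows of the same length. The shorter core GGTCA, which every AGGTCA contains, was present in these 3 windows and in 35.2% of all windows. No window was available for Oc90. Among all 5 windows available for the other members, 2 had no match to this core, that of Coch and that of a downstream Tecta start, and neither is shown. In Tectb it lay on the gene's strand at -201 to -197 from the start, in Tecta on the opposite strand at -35 to -31, and in Otog on the opposite strand at -13 to -9. A match of letters is a description of the window and not a binding site. The study's own search used repeats of variable spacing, and covered longer upstream regions and first introns. Absence of the full half-site from these short windows is therefore not absence of a site near the gene.

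The labels were checked on the deleted gene. Nr2f1 ranged between 4.68 and 5.27 in COUP-TFI-/- chips and between 7.74 and 8.83 in wild-type chips (GCRMA), a difference of -3.37 (limma, adjusted p = 5.9e-11). Duplicate chips correlated at 0.996 to 0.997 in GCRMA and 0.993 to 0.995 in dChip, and chip medians lay within 7.20 to 7.23 (GCRMA). Differences between hybridization sets were wider than those between genotypes: the median absolute difference over all probe sets was 0.16 between sets and 0.06 between genotypes (GCRMA, log2). Striated muscle markers, which a dissected ear can carry along, were all positive in the genotype difference (18 of 18, median 0.38 in GCRMA, 2 past the adjusted threshold), with a median of 0.83 in set B and 0.0072 in set A. Their summed dChip intensity in set B was 37370 to 39275 in COUP-TFI-/- chips and 22902 to 23165 in wild-type chips, whereas in set A it was 31760 to 32820.5 in COUP-TFI-/- chips and 33363 to 33695 in wild-type chips.

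Tectb, the ZP-domain glycoprotein that with alpha-tectorin forms the striated-sheet matrix of the tectorial membrane, showed the largest genotype difference of the 5 genes and was lower in COUP-TFI-/- ears in both sets and both normalizations. In GCRMA the set A chips read 8.59 and 8.61 for COUP-TFI-/- against 9.23 and 9.09 for wild-type. The set B chips read 8.09 and 8.25 for COUP-TFI-/- against 8.59 and 8.57 for wild-type. Within each set both COUP-TFI-/- chips lay below both wild-type chips, with a gap (0.48 for set A, 0.32 for set B) that exceeded every distance between duplicates of this gene (0.02 to 0.15). Across sets the groups met: the COUP-TFI-/- chips of set A and the wild-type chips of set B shared the same level, near 8.6. From the lowest to the highest, the pools were thus ordered as COUP-TFI-/- B, then COUP-TFI-/- A and wild-type B without a separation between them, then wild-type A.

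The dChip intensities of Tectb had the same direction on a linear scale. Set A chips had intensities of 961 and 929 for COUP-TFI-/- against 1367 and 1217 for wild-type. Set B chips had 582 and 600.4 for COUP-TFI-/- against 862 and 877 for wild-type. The gap between genotypes was 0.34 within set A and 0.52 within set B (log2), and here the COUP-TFI-/- chips of set A stood above the wild-type chips of set B.

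**Figure D1:**
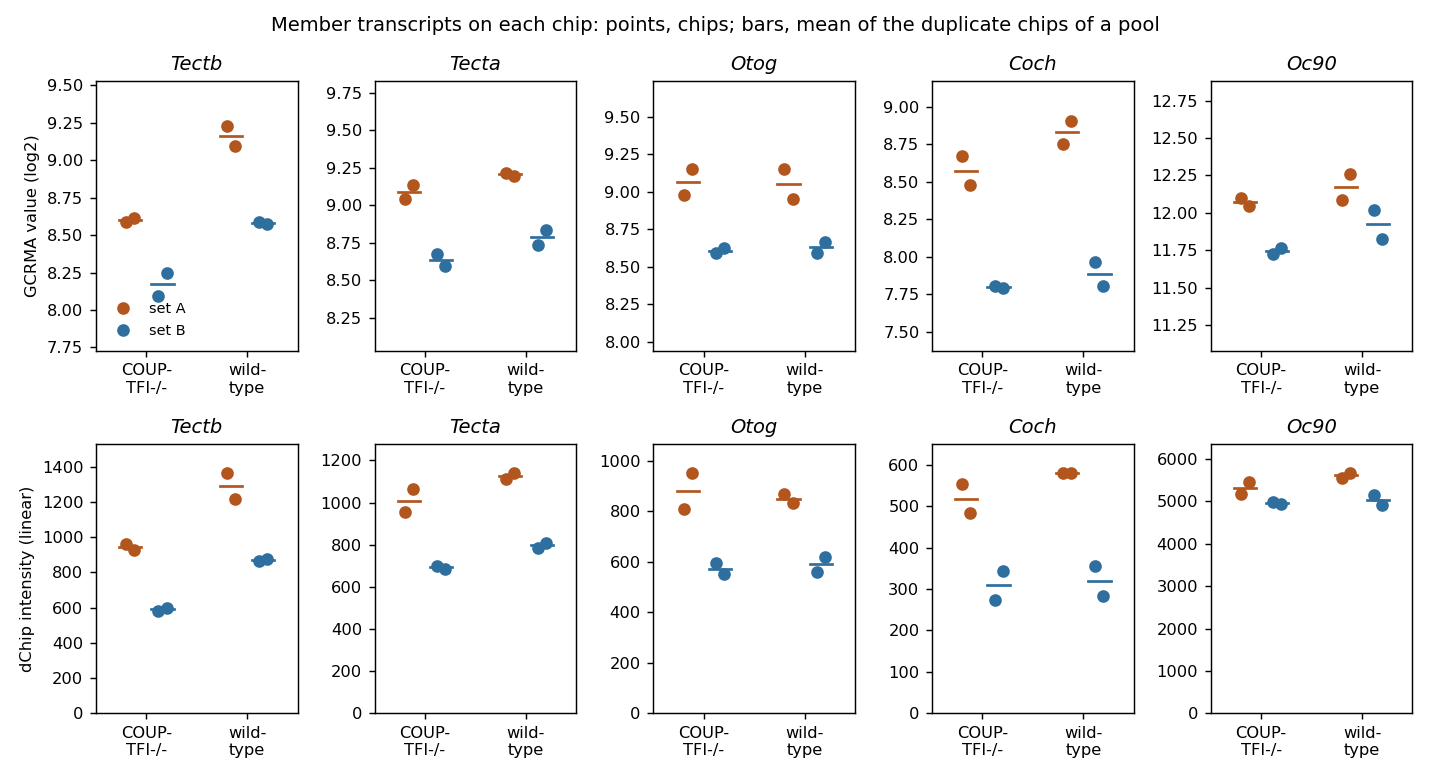
Value of each member on every chip, COUP-TFI-/- left and wild-type right in each panel, as GCRMA log2 values (upper row) and dChip linear intensities (lower row), with points for chips, bars for the mean of the duplicate chips of a pool, and colours for set A and set B. Tectb in COUP-TFI-/- chips lies below wild-type within each colour, and all 5 genes lie higher in set A than in set B.

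Averaged over the 2 pools of a genotype, Tectb was 8.39 in COUP-TFI-/- ears and 8.87 in wild-type ears (GCRMA), a difference of -0.48 with SE 0.10 and a 95% interval of -0.69 to -0.28, or a ratio of 0.715 of knockout over wild-type. With the pool as replicate and the set as a block, the limma p was 1.5e-04 and the p adjusted over 12422 probe sets was 0.106, above the 0.05 threshold that 0.105% of all probe sets passed. By dChip the difference was -0.50 (SE 0.10, 95% interval -0.76 to -0.24, ratio 0.706), with a limma p of 0.00356 and an adjusted p of 1.00, where 0.00805% of probe sets passed. The adjusted threshold was thus passed by 0 of 5 members in either normalization. An unadjusted limma p below 0.05 was reached by Tectb alone in both, and by 4.58% of all probe sets in GCRMA and 2.13% in dChip. Ordered from the most negative difference, Tectb was at place 7 of 12422 probe sets in GCRMA and at place 61 of 12421 in dChip. With duplicate chips taken as replicates, the adjusted p was 0.0100 in GCRMA and 0.0307 in dChip, so the call changed where the 2 chips of a pool were counted as separate samples. The study selected Tectb from these same chips, so these values are not independent evidence of its direction.

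Tecta, the modular glycoprotein that is the partner of beta-tectorin in the striated-sheet matrix, differed in the same direction by a smaller amount. For set A the COUP-TFI-/- chips read 9.04 and 9.14, against 9.22 and 9.20 for wild-type (GCRMA). For set B they read 8.67 and 8.59, against 8.74 and 8.84 for wild-type. The COUP-TFI-/- chips were below the wild-type chips within both sets, but the gaps of 0.06 and 0.07 were no wider than the widest distance between duplicates (0.10). The difference was -0.13 (95% interval -0.34 to 0.07, adjusted p = 1.00) in GCRMA and -0.18 (95% interval -0.43 to 0.07, adjusted p = 1.00) in dChip. The dChip intensities were 953 and 1064 for COUP-TFI-/- against 1111 and 1142 for wild-type chips of set A. They were 701 and 686 for COUP-TFI-/- against 785 and 808 for wild-type chips of set B.

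Otog encodes otogelin, a mucin-like protein with von Willebrand factor domains that anchors the otoconial membranes and cupulae in the mouse. Its GCRMA values were 8.98 and 9.15 for COUP-TFI-/- against 9.15 and 8.95 for wild-type in set A. In set B they were 8.59 and 8.62 for COUP-TFI-/- against 8.59 and 8.67 for wild-type. The genotypes overlapped in each set. The difference was -0.0041 (95% interval -0.21 to 0.20) in GCRMA and 0.0031 (95% interval -0.25 to 0.26) in dChip, so a difference as large as that of Tectb lay outside both intervals, while smaller ones of either sign lay within them. By dChip, COUP-TFI-/- chips spanned 550.1 to 952 and wild-type chips 559 to 868.

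Coch, whose human counterpart is mutated in a dominant form of deafness with vestibular loss, was read at 8.67 and 8.48 in COUP-TFI-/- against 8.75 and 8.91 in wild-type chips of set A (GCRMA). In set B the readings were 7.81 and 7.79 in COUP-TFI-/- against 7.97 and 7.81 in wild-type chips. The genotypes were apart in the chips of set A and overlapped in those of set B. The difference was -0.17 (SE 0.10, 95% interval -0.38 to 0.04, adjusted p = 1.00) in GCRMA and -0.10 (95% interval -0.37 to 0.16, adjusted p = 1.00) in dChip. Intensities by dChip were 274.5 to 553 in COUP-TFI-/- chips and 282 to 581 in wild-type chips.

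Oc90, which carries phospholipase A2-like domains and organizes crystal growth in otoconia, read 12.10 and 12.05 in COUP-TFI-/- against 12.09 and 12.26 in wild-type chips of set A (GCRMA). Its set B chips read 11.73 and 11.77 for COUP-TFI-/- against 12.02 and 11.83 for wild-type. In GCRMA the genotypes overlapped in set A and were apart in set B, and in dChip the sets were the other way round. The difference was -0.14 (95% interval -0.34 to 0.06, adjusted p = 1.00) in GCRMA and -0.05 (95% interval -0.31 to 0.20, adjusted p = 1.00) in dChip. Intensities were 4927 to 5449 in COUP-TFI-/- chips and 4901 to 5674 in wild-type chips (dChip).

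**Figure D2:**
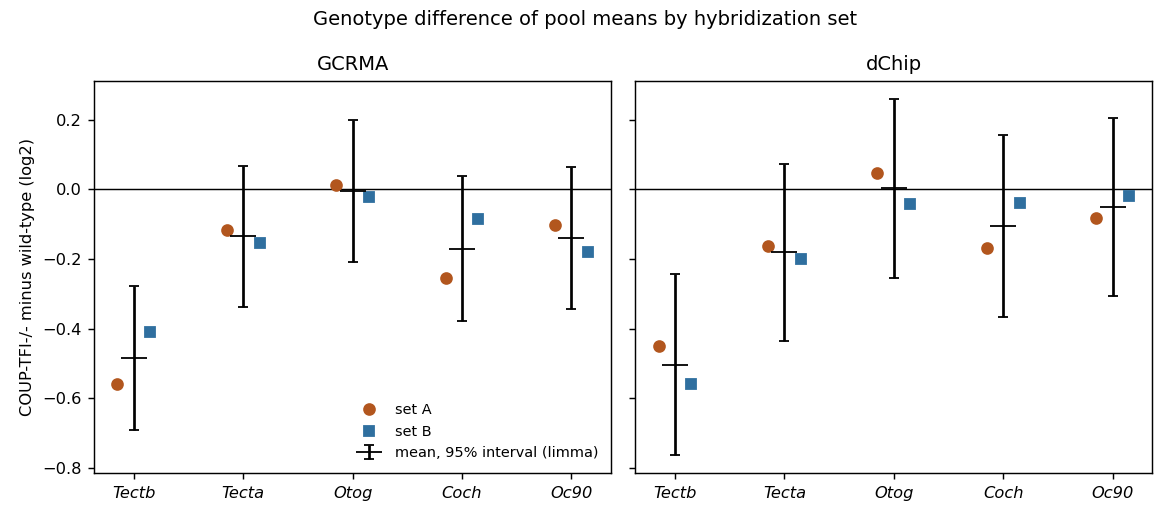
Difference of pool means, COUP-TFI-/- minus wild-type (log2), for each member in GCRMA (left) and dChip (right), with circles for set A, squares for set B, and the mean of both with its 95% limma interval in black. The interval of Tectb lies below 0 in both panels, from -0.69 to -0.28 in GCRMA, and the intervals of the other 4 genes include 0.

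Counted over the 5 genes, COUP-TFI-/- chips lay below wild-type chips within both sets for 2 (Tectb and Tecta) in either normalization, where 3.65% of all probe sets did so in GCRMA and 4.06% in dChip. For 0 of 5 did all 4 COUP-TFI-/- chips lie below all 4 wild-type chips, which held for 0.91% of probe sets in GCRMA and 0.853% in dChip. The study's own rule of a genotype p below 0.01 with an interaction p above 0.01 over 8 chips, applied with limma, was met by Tectb alone in both normalizations (limma genotype p of 4.3e-06 in GCRMA and 1.8e-05 in dChip), where 3.59% of all probe sets met it in GCRMA and 2.95% in dChip. This fit over 8 chips counts the duplicate chips of a pool as separate samples. It includes the interaction, which the fit with duplicate chips as replicates described earlier did not. Its limma adjusted p for genotype was 0.0020 for Tectb, 0.351 for Tecta, 0.302 for Coch, 0.399 for Oc90 and 0.989 for Otog (GCRMA). In dChip it was 0.0153 for Tectb. With so few members these shares describe the list and do not set it apart from other genes.

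Compared with the other members, Tectb was lower by an amount that the mean of the 4 did not share. In GCRMA the Tectb difference was -0.56 for set A and -0.41 for set B, while the mean of the other 4 was -0.11 for each set. Tectb minus Tecta, the change in the ratio of the 2 tectorin transcripts in COUP-TFI-/- ears relative to wild-type ears, was -0.44 (set A) and -0.26 (set B) by GCRMA, and -0.29 (set A) and -0.36 (set B) by dChip. In RNA from whole ears, fewer cells of a type and less RNA per cell cannot be told apart.

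**Figure D3:**
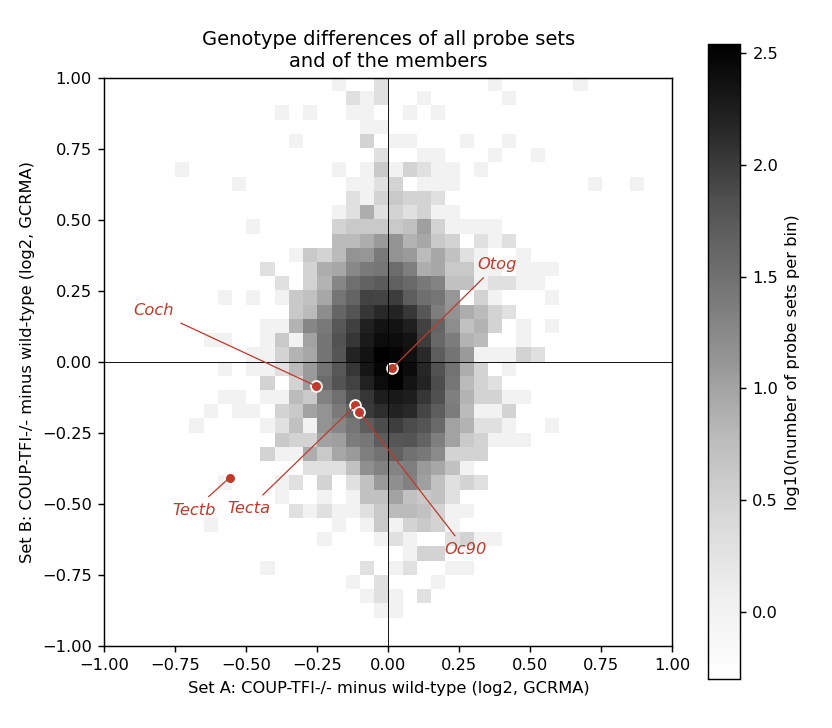
Genotype difference in set A (x axis) against set B (y axis), both COUP-TFI-/- minus wild-type in GCRMA log2 units, with grey shading for the number of probe sets per bin (log10) and red points for the members. Tectb lies at -0.56 and -0.41, away from the bulk of probe sets, while Otog lies next to the origin.

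The hybridization set separated these transcripts more than the genotype did for each of the 5 genes, most narrowly for Tectb (0.51 between sets, -0.48 between genotypes, GCRMA). All 5 genes were higher in set A than in set B, with all 4 set A chips above all 4 set B chips in both normalizations, a pattern found in 17.1% of all probe sets in GCRMA and 20.1% in dChip. Coch had the widest set difference, 0.86 in GCRMA (adjusted p = 2.4e-06) and 0.81 in dChip (adjusted p = 4.2e-04). In GCRMA the difference of Tectb had an adjusted p of 5.1e-05, and those of the others were 0.44 for Tecta (adjusted p = 9.7e-05), 0.44 for Otog (adjusted p = 2.5e-04) and 0.29 for Oc90 (adjusted p = 0.0038). By dChip the set difference was 0.62 for Tectb, 0.52 for Tecta and 0.57 for Otog. In limma over 8 chips the difference passed the threshold for 5 of 5 in GCRMA and for 4 of 5 in dChip, Oc90 being the exception at 0.13 (adjusted p = 0.0615), where 21.9% and 26.5% of all probe sets were called higher in set A in GCRMA and in dChip. Since each genotype had 1 pool in each set, these p-values measure how far duplicate chips scatter.

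Each genotype showed the set difference on its own. In COUP-TFI-/- ears it was 0.43 for Tectb, 0.46 for Tecta, 0.46 for Otog, 0.77 for Coch and 0.33 for Oc90, against 0.58, 0.42, 0.42, 0.94 and 0.25 for the same genes in wild-type ears (GCRMA). The genotype by set interaction passed the threshold for 0 of 5 members in either normalization, where 0.958% of probe sets passed in GCRMA and 0.459% in dChip. The adjusted p for the interaction was 0.585 for Tectb in GCRMA and 0.632 in dChip, and for all members it was at least 0.582, with 0 of 5 below an unadjusted p of 0.05.

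Other proteins of the same matrices were read from lists of known components. Of 15 listed genes of the tectorial membrane, 11 were on the chip, the 3 members Tectb, Tecta and Otog and 8 collagen chains. None of the collagens passed the test between genotypes in limma (0 of 8, and 0 at an unadjusted p below 0.05), and 7 of 8 had positive differences, within -0.06 to 0.14 (GCRMA). The negative one was Col2a1, whose probe set read low, with a mean of 6.65 that lay below the chip medians. Col11a2 and Col9a1, chains of the fibrils of cartilage and of the tectorial membrane, had differences of 0.14 and 0.13 (adjusted p = 1.00 each). Over the list the median was 0.08, beside 0.00077 over all probe sets, and Tectb alone had an unadjusted p below 0.05. The 3 chains of collagen IX were lower in set A (set difference -1.06 to -0.86, GCRMA), opposite in sign to the noncollagenous members. Col11a2 ran with them (-0.90, adjusted p = 5.0e-07), while 3 of the other 4 collagens were higher in set A in GCRMA. By dChip 2 were higher in set A, and the set difference of Col11a1 turned from 0.26 to -0.09 (limma adjusted p = 0.245). Markers of otic capsule cartilage, a list that shares Col9a1, Col2a1 and Col11a2 with that of the tectorial membrane, had the same sign as collagen IX (8 of 10 higher in set B, 0 in set A, median -0.61). Over all probe sets, 3012 of 12422 were called higher in set B in GCRMA and 2987 of 12421 in dChip (limma over 8 chips). The summed cartilage markers were 16502 to 18182 in set A and 26779 to 30364 in set B (dChip), and their part in the collagen values was not tested.

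The otoconial list held 12 genes, of which 6 were on the chip. None passed the test between genotypes in GCRMA or in dChip (0 of 6, and 0 at an unadjusted p below 0.05). Sparcl1, a secreted glycoprotein of the SPARC family found in otoconia, had a difference of -0.15, and Dmp1, an acidic phosphoprotein of mineralized tissue, had 0.13. Dmp1 was read at a low level, with a mean of 5.88 that lay below the chip medians (GCRMA). Between sets, Oc90 and Sparcl1 were higher in set A and the other 4 genes in set B (GCRMA), among them Sparc by -0.52. By dChip only 1 gene of the list passed the threshold as higher in set A and 2 as higher in set B.

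Among genes used to mark fibrocytes, Coch included, 13 of 16 were on the chip and 0 passed the test between genotypes in limma, with 1 in GCRMA and 0 in dChip at an unadjusted p below 0.05. Gjb2, a connexin of gap junctions between supporting cells and between fibrocytes, had the largest difference (-0.29, adjusted p = 0.847), and Pou3f4, a transcription factor of the otic mesenchyme, had -0.18. The set difference of Coch was shared in sign by Slc12a2, a sodium, potassium and chloride cotransporter of the lateral wall (0.89), and by Pou3f4 (0.59), within a list of which 6 of 13 were higher in set A and 1 in set B. Markers of neurons and hindbrain, a list that also holds the pituitary hormone Gh, were higher in set A for 12 of 15 genes (median 0.51, 1 higher in set B), with dChip sums of 9983 to 11977 in set A and 7594 to 8512 in set B. Without Gh, which alone gave 1128 of the 2662 between the mean sums, they were 8123 to 8676 in set A and 6295 to 7450 in set B. The part of tissue composition in the set difference of the 5 members was not tested.

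Tectorins are made by the epithelial cells beside and below the hair cells, so markers of supporting and prosensory cells were set beside Tectb. Of 13 on the chip (16 listed), 1 fell past the adjusted threshold in GCRMA and 0 in dChip (2 in each at an unadjusted limma p below 0.05): Fabp7, a fatty acid binding protein of glia and supporting cells, at -0.58 (adjusted p = 0.0389). Sox2, which encodes a transcription factor of progenitor cells in sensory patches and in the nervous system, had -0.36 (adjusted p = 0.427). The median of the list was -0.01 in GCRMA and -0.08 in dChip, with 7 and 10 of 13 negative. Their summed intensity was 6761 to 7007 in COUP-TFI-/- chips and 7595 to 7727 in wild-type chips of set A, and 5711 to 6239 in COUP-TFI-/- chips and 6766 to 7128 in wild-type chips of set B (dChip). Fabp7 made up most of that difference, with -551 of -777 in set A and -931 of -972 in set B. The study selected Fabp7 from these same chips and reports it as a direct COUP-TFI target. Its value is therefore not an independent reading of these cells. The other 12 markers summed to 4216 to 4449 in COUP-TFI-/- chips and 4466 to 4652 in wild-type chips of set A, and overlapped in set B (3890 to 4062 in COUP-TFI-/- chips, 3975 to 4060 in wild-type chips). The part of these cells in the Tectb difference was not tested.

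Hair cell markers were read in the same way. Of 8 on the chip (17 listed), 0 passed the test in limma in either normalization, with 2 in GCRMA and 0 in dChip at an unadjusted p below 0.05, and the median was -0.01 (GCRMA). Calb1 and Calb2, calcium-binding proteins of hair cells and neurons, had differences of -0.29 and -0.25 (adjusted p = 0.705 and 0.909). The sum of the 8 markers was lower in COUP-TFI-/- chips of set A (4971 to 5110, against 5653 to 5678 in wild-type) and higher in those of set B (5311 to 5449, against 4954 to 5015 in wild-type) by dChip, while by GCRMA the genotypes overlapped in set B. Most of this came from Pvalb, a calcium-binding protein that is also made by fast muscle: its mean intensity differed by -502 in set A and by 394 in set B, and the other 7 markers together by -123 and 1.55 (dChip). The Tectb difference was -0.56 in GCRMA and -0.45 in dChip for set A, beside -0.41 and -0.56 for set B. Muscle sums of set A were lower in COUP-TFI-/- than in wild-type chips by dChip. By GCRMA they overlapped (21404 to 21970 in COUP-TFI-/- chips, 21815 to 21850 in wild-type chips). The part of muscle in the Tectb difference was not tested.

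**Figure D4:**
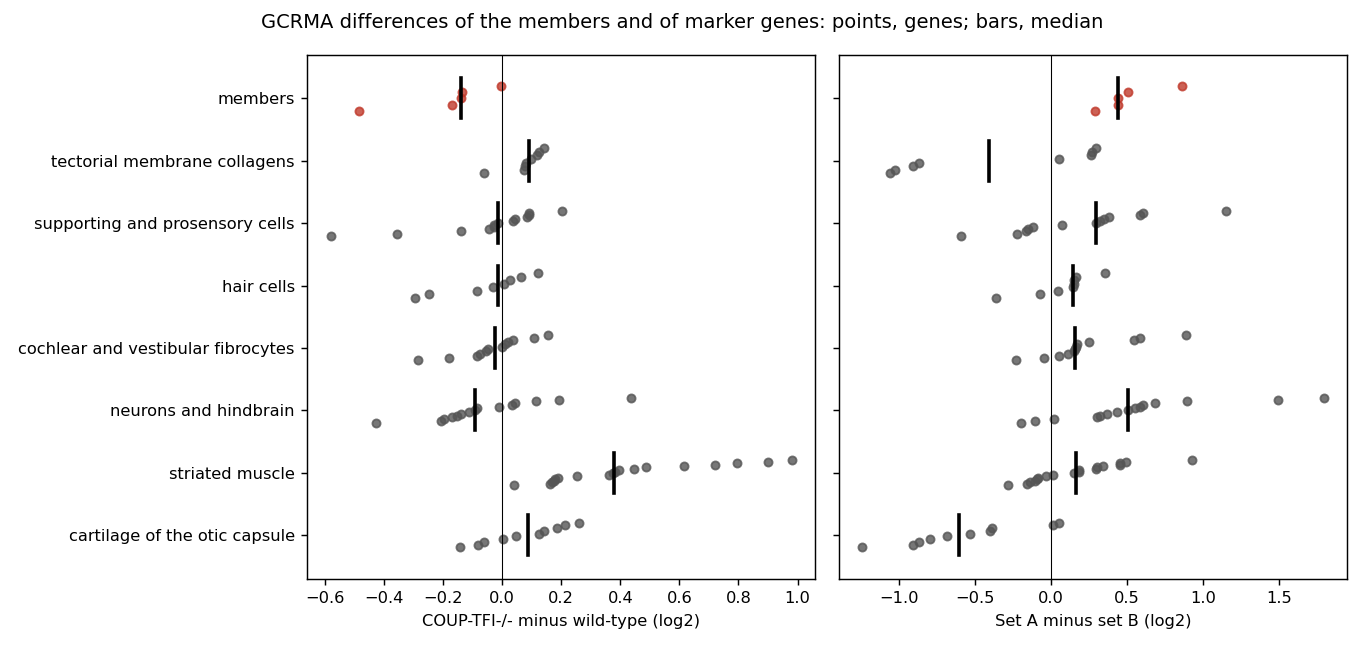
GCRMA differences of the 5 members (red) and of marker genes (grey) by list, COUP-TFI-/- minus wild-type on the left and set A minus set B on the right (log2), with points for genes and black bars for the median. Tectb is the leftmost red point at -0.48, striated muscle markers lie to the right of 0 with a median of 0.38, and 8 of 10 cartilage markers lie to the left of 0 in the set difference, whose median is -0.61.

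The genes whose GCRMA values over the 8 chips followed each member most closely were found among 7598 genes. These correlations come from 4 pools on duplicate chips that share the set difference, and they are given as descriptions. For Tectb they were Tbce, a tubulin-folding cofactor (r = 0.979 in GCRMA, 0.884 in dChip), Mob1a (0.977, but 0.0617 in dChip) and Cidea (0.973 and 0.926), a lipid droplet protein of brown fat whose own genotype difference was -0.32. For Tecta they were Pcsk5, Syt2 and Wee1 (0.987, 0.982 and 0.981), and for Otog Itih2, Rnf4 and Igsf10 (0.979, 0.976 and 0.976). Coch ran with Scn1a (0.994), Herc1 (0.989) and Topbp1 (0.988), the last with r = -0.59 in dChip, and Oc90 with Usp1 (0.985), Plk2 (0.977) and Mdm2 (0.975), the last with r = -0.32 in dChip. The members themselves were left out of this search.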

How the data were processed

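The values are those the authors deposited for 8 chips: GCRMA values on the log2 scale and dChip intensity values on a linear scale, which the authors had corrected for background, normalized and reduced to 1 value for each probe set. Software versions are not given in the sources used here. All 16 value columns were used. The table held 12488 probe sets, from which 66 control probe sets of the manufacturer were removed, and dChip values below 1 (89) were set to 1 before log2. Precision is limited by the number of pools and chips. Duplicate chips were averaged, and genotype was tested on 4 pool means with limma 3.58.1 in R 4.3.3, with the hybridization set as a block and Benjamini-Hochberg adjustment over 12422 (GCRMA) or 12421 (dChip) probe sets (1 dChip probe set had a missing value). The letter of the chip labels was read as the hybridization set and the number as the duplicate, which the labels do not define in words. Set differences of both genotypes correlated at 0.752 (GCRMA) and 0.688 (dChip). Set, interaction and the methods' thresholds were tested over 8 chips. With 1 residual degree of freedom in the pool fit, its spread was drawn mostly from all probe sets (prior degrees of freedom 14.3 in GCRMA, 4.55 in dChip). The fits were tested on simulated data. Single symbols named 10833 probe sets (10817 matched by gene ID to RefSeq), several 396 and none 1193. Where a gene had several probe sets, that of highest mean GCRMA value was read. From each list up to 3 genes with the largest difference at an unadjusted p below 0.05 were named, else 2, and others where the text describes a list (Pou3f4, Slc12a2, Sparc) were named after their values were seen. Genes most like a member were the 3 of highest r with a mean GCRMA value of at least 5. Members and lists were chosen with earlier results of these data known. Lists of bone, fat and red blood cell markers and of protein domain families are given among the other observations.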

Additional observations from a re-analysis of the deposited data

How the results depend on the processing

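The direction of Tectb held in all 31 alternatives of both normalizations, with a range of adjusted p of 0.0055 to 1.00. It passed the threshold with 8 chips as replicates (-0.48, adjusted p = 0.0100 in GCRMA, and -0.50, adjusted p = 0.0307 in dChip), with the RNA pool as a random block (-0.48, adjusted p = 0.0105 in GCRMA), with dim probe sets left out (-0.48, adjusted p = 0.0055 in GCRMA) and without COUP-TFI-/- chip B1 (-0.45, adjusted p = 0.0302 in GCRMA), so that 1 member was called in place of 0 in each of these. The random block estimated a residual correlation of 0.0072 between chips of a pool in GCRMA, so it treated the 8 chips nearly as separate samples. In dChip, where that correlation was 0.152, Tectb did not pass with the random block (limma adjusted p = 0.0661). Leaving out single chips moved the Tectb difference within -0.52 to -0.45 in GCRMA. Without the set as a replicate block, 0 probe sets were called in either normalization and Tectb had an adjusted p of 1.00. The count of probe sets called between genotypes was 13 in GCRMA and became 27 with 8 chips as replicates, 27 with the random block, 1 under the methods' analysis of variance, 2 after quantile normalization, 38 without dim probe sets, and 1 to 54 without single chips (1 without COUP-TFI-/- A1, 54 without COUP-TFI-/- B1, 22 without wild-type A1, 2 without wild-type A2 and 3 without wild-type B1). In dChip it was 1 and became 8 with 8 chips, 5 with the random block, 3 after quantile normalization, 8 without dim probe sets, 4 with a mean-variance trend, 0 with values below 16 set to 16, and 1 to 5 without single chips (5 without COUP-TFI-/- A2 and 3 without wild-type B2). The cause was not tested. The near-zero genotype difference of Otog changed sign without single chips, within -0.0535 to 0.0453 in GCRMA and -0.0558 to 0.0619 in dChip, and Tecta, Coch and Oc90 kept their sign and stayed short of the threshold in 31 alternatives each. Their differences without single chips ranged over -0.16 to -0.11 and -0.22 to -0.14 (Tecta), -0.22 to -0.12 and -0.19 to -0.02 (Coch) and -0.19 to -0.09 and -0.07 to -0.03 (Oc90) in GCRMA and dChip. Coch in dChip was -0.02 without COUP-TFI-/- B1 or wild-type B1, -0.06 without COUP-TFI-/- A2 and -0.19 without COUP-TFI-/- B2 or wild-type B2, Oc90 in dChip was -0.03 without COUP-TFI-/- A1 or wild-type B1, and Oc90 in GCRMA was -0.09 without wild-type B1. The hit rule of the methods was met by 446 and 367 probe sets in GCRMA and dChip, by 256 in GCRMA under the analysis of variance, and by 293 to 607 and 230 to 396 without single chips (293 without wild-type A1, 230 without COUP-TFI-/- A1 and 242 without wild-type B1). In dChip, without COUP-TFI-/- A2, Tecta also met it (difference -0.22, range -0.22 to -0.14), which made 2 members in place of 1. The set difference kept its sign for all members, with 3747 probe sets called under the analysis of variance in place of 5731 in GCRMA, and Oc90 in dChip passed the threshold under the analysis of variance (0.13, adjusted p = 0.0289) and after quantile normalization (0.24, adjusted p = 0.0037). Interaction calls were 119 in GCRMA and 57 in dChip, 5 and 0 under the analysis of variance, 135 in dChip after quantile normalization, and 23 to 237 and 0 to 131 without single chips. No member was called for it, and its sign changed without single chips for Otog (-0.0629 to 0.135 in GCRMA, -0.0300 to 0.206 in dChip), Tecta (-0.0115 to 0.0858 and -0.0419 to 0.118), Oc90 in GCRMA (-0.0208 to 0.173) and Coch in dChip (-0.293 to 0.0372), and for Oc90 in dChip after quantile normalization (0.011).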

Other observations

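Genes that share protein domains with the members were read in the same fit. The zona pellucida domain, through which extracellular proteins polymerize, occurs in both tectorins, and 10 of 11 listed genes with it were on the chip. In limma 0 of 10 passed the test between genotypes, and at an unadjusted p below 0.05 there were 1 in GCRMA, Tectb, and 2 in dChip. Tgfbr3, a co-receptor for TGF-beta ligands, had a difference of 0.14 and Zp2, an egg coat protein, -0.09. Over the list the median was -0.01 in GCRMA and -0.08 in dChip. Of 17 listed genes with von Willebrand factor domains, which Tecta, Otog and Coch share, 12 were on the chip and 0 passed in limma. Matn2, a matrilin of connective tissue matrix, had the largest difference at an unadjusted p below 0.05 (0.22, adjusted p = 1.00). Between sets this family was divided: 5 genes were higher in set A, among them Tecta, Otog and Coch, and 5 were higher in set B, among them the cartilage matrilins Matn1 (-0.68) and Matn3 (-0.79).

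Of markers of tissues around the ear, Ucp1, the uncoupling protein of brown fat, was lower in COUP-TFI-/- ears by GCRMA (-1.26, adjusted p = 2.6e-04), the call among 6 fat markers on the chip (8 listed). At an unadjusted limma p below 0.05, 4 of 6 fat markers were lower in GCRMA, where the list median was -0.28 and 2 of 6 differences were positive. In dChip 0 of 6 fat markers passed in limma, and 1 had an unadjusted p below 0.05. Bone markers had positive differences in 6 of 6 (median 0.16, 0 past the adjusted threshold, 0 at an unadjusted p below 0.05), and red blood cell markers a median of 0.0017 over 5 genes with 0 called (0 at an unadjusted p below 0.05). Myh8 and Myh3, myosins of developing muscle, were the striated muscle markers that rose past the threshold in GCRMA (0.98 and 0.80, adjusted p = 0.0092 and 0.0140), with 0 of 18 in dChip, where 4 had an unadjusted p below 0.05. Among neuronal markers Gad1, an enzyme of GABA synthesis, had -0.43 (adjusted p = 0.256), and among cartilage markers Chad, a matrix protein, had 0.26 (adjusted p = 0.986), with 0 called in either list in limma (2 at an unadjusted p below 0.05 in each, GCRMA). Gad1 was read at a low level, with a mean of 5.39 beside chip medians of 7.20 to 7.23 (GCRMA).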
